A study of Mus musculus with 2 samples.

Results

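Mpo and Ms4a3 are 2 of the 32285 genes counted in single leukemic promyelocytes, the granule-forming precursors of neutrophils, from mice with leukemia driven by the PLZF/RARA fusion. Both were taken by gene symbol. They were picked because their summed counts in retinoic acid and vehicle cells were already known to differ in opposite directions, so the difference between the libraries is given below as a description and nothing is tested with it. Cells were sorted from leukemic bone marrow as late promyelocytes (CD45.2, c-Kit, Gr1 and Fcγ receptor positive, CD34 negative) after 7 days of intraperitoneal treatment. The retinoic acid group received 0.8 to 1 mg of the drug, and the vehicle group received corn oil with 10% DMSO. Cells of both groups carry the fusion, a cohort held 3 to 5 mice, and strain, age and the number of mice behind each library are not given in the sources used here. Each group is 1 library, so differences between the groups rest on no replicates, and mouse, leukemia and preparation cannot be told apart from the treatment.

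Myeloperoxidase, the product of Mpo, is a haem enzyme that turns hydrogen peroxide and chloride into hypochlorous acid. It is stored in the azurophil (primary) granules, which are filled during the promyelocyte stage, and its transcription is known to be shut off as neutrophils mature towards secondary granule synthesis. Ms4a3 encodes a small membrane-spanning protein of the MS4A family, is widely used to mark granulocyte and monocyte progenitors, and its human counterpart HTm4 is known to bind the phosphatase KAP (gene Cdkn3), which acts on the cell cycle kinase CDK2.

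The values are counts of unique molecular identifiers (UMIs), each of which marks 1 captured RNA molecule. After filtering, the vehicle library held 5476 cells and 99107718 UMIs with a median of 16750 UMIs per cell, and the retinoic acid library held 7140 cells and 110088247 UMIs with a median of 14604. Levels are counts scaled to 1000000 UMIs of the library or cell group (CPM), with exact 95% Poisson intervals. Shares of cells carry exact 95% binomial intervals. All intervals cover counting error only. Those of CPM leave out the spread between cells, so they are narrow for genes whose UMIs lie in few cells. All 7 promyelocyte markers (Elane, Prtn3, Ctsg, Prss57, Nkg7, Plac8 and Clec12a) reached 20 CPM in both libraries. They summed to 10875 CPM without the drug and to 20071 CPM with it. Elane went from 62.8 CPM in 31.8% of vehicle cells to 7663 CPM in 93.9% of retinoic acid cells. Prtn3 and Clec12a were also at least 2-fold higher, Nkg7 was lower (1283 to 575 CPM), and Ctsg, Prss57 and Plac8 were within 2-fold. Camp, a marker of maturing neutrophils, was at 175 and 18200 CPM. The markers thus do not show that both libraries held cells of the same stage. Of 4 further genes on a longer promyelocyte list, Ly6c2 and Calr also reached 20 CPM in both, whereas Fcnb was at 0.293 and 18.6 CPM and Hdc at 67.0 and 1.71 CPM under vehicle and retinoic acid. The libraries listed 11 barcode sequences in common, and leaving these cells out gave log2 ratios of -9.27 for Mpo and 1.30 for Ms4a3, as with all cells.

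Both genes lie in clusters of related genes. Mpo (ENSMUSG00000009350) spans GRCm38 chromosome 11, 87793581 to 87804413, on the plus strand, and its principal GENCODE transcripts have 14 exons and a coding length of 2154 bases, stop codon excluded. Ms4a3 (ENSMUSG00000024681) spans chromosome 19, 11629496 to 11640851, on the minus strand, with 7 exons and a coding length of 639 bases in its principal transcripts. The bases just before the outermost annotated start of each gene are shown to place the start sites in sequence, with matches to searched motifs in capitals. They are RefSeq sequence of build GRCm38.p6, written 5′ to 3′ on the gene's strand, and cover chr11:87793534-87793580 for Mpo and chr19:11640852-11640911 for Ms4a3.

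Mpo: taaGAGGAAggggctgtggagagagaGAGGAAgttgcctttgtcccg
Ms4a3: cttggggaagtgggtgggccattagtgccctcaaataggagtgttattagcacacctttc

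The capitals in the Mpo stretch are 2 matches to GAGGAA, the core of sites bound by the myeloid factor PU.1. Motifs were searched on both strands of the 300 bases from 250 before to 50 after each RefSeq start, over 32544 promoters. GAGGAA was in 28.1% of all promoters, and Ms4a3 had 1 match. The half-site GGGTCA, of the kind bound by retinoic acid receptors, matched 2 times in the Mpo window and not in that of Ms4a3, and 13.7% of all promoters held it. Those matches lie inside the first exon of a GENCODE transcript of Mpo that starts upstream of the RefSeq start. They are shown with 10 bases on each side, as the stretches chr11:87793709-87793734 and chr11:87793736-87793761.

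Mpo, forward match: gccctcaaggGGGTCAagcattgcta
Mpo, reverse match: atcttccctgTGACCCtcccctctct
Ms4a3, PU.1 and C/EBP letters: tggacttgctGAGGAATTGCACAAa

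In the Ms4a3 stretch, chr19:11640802-11640826 in the first exon, the capitals are GAGGAA directly followed by a match to TTGCNNAA, letters of the C/EBP factors that drive granulocyte genes. The matches adjoin without overlap. TTGCNNAA was in 10.8% of all promoters and not in the Mpo window. TAACNG (MYB) matched 1 time in the Mpo window and was in 23.4% of all promoters. Another receptor half-site, AGGTCA, had no match in either window and was in 16.2% of all promoters. The RUNX letters TGTGGT, which 16.7% of all promoters held, likewise had no match. The same held for the letters AGATAA of GATA factors, found in 11.2%, and for the TATA box letters TATAAA, found in 13.6%. No binding was measured in these libraries, so a match is a description of the letters.

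Mpo RNA was present in the vehicle library and nearly missing from the retinoic acid library. The vehicle cells summed to 30857 Mpo counts, a level of 311 CPM (308 to 315), and the retinoic acid cells to 55 counts, a level of 0.4996 CPM (0.376 to 0.650). The log2 ratio of retinoic acid over vehicle was -9.27 (-9.69 to -8.90), which is 618-fold lower. Ms4a3 went the other way. Its 84228 vehicle counts gave a level of 850 CPM (844 to 856), and its 229760 retinoic acid counts one of 2087 CPM (2079 to 2096). Its log2 ratio was 1.30 (1.28 to 1.31), a 2.46-fold higher level. A level of 20 CPM or more in one of the libraries was reached by 5548 genes, and of these 8.07% were past 2-fold, 3.03% higher and 5.05% lower, and 0.829% were 10-fold lower or more. Ranked by log2 ratio Mpo was number 2 from the bottom and Ms4a3 number 94 from the top of these genes, which restates the values the genes were picked on.

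Apart from promyelocytes and maturing neutrophils, every cell type listed had a lower sum of markers under retinoic acid, as Mpo had a lower level. The 15 basophil or mast cell markers summed to 1090 CPM under vehicle and 84.3 CPM under retinoic acid, with Fcer1a, Tpsb2, Tpsab1, Mcpt4 and Grm6 at 0 in both and Prss34 at 0 under retinoic acid. Of them 5 reached 20 CPM under vehicle and 1 under retinoic acid. Large parts of the vehicle sum were Cpa3 (570 and 0.0999 CPM) and Cyp11a1 (268 and 15.1 CPM). Not all markers were lower, as Ms4a2 went from 1.45 to 2.05 CPM. The 8 eosinophil markers summed to 126 and 34.7 CPM, with Ear2 at 0 under vehicle and Ear1 at 0 under retinoic acid. Sums were also lower for monocyte (94.1 to 15.8 CPM), dendritic (269 to 126 CPM) and stem or progenitor markers (77.7 to 17.6 CPM). The same held for megakaryocyte (29.5 to 1.46 CPM), erythroid (16.1 to 1.92 CPM) and B cell markers (10.3 to 7.60 CPM). The T or NK cell sum went from 1286 to 575 CPM and was nearly all Nkg7. With the higher Ms4a3 level moved the sum of the 20 markers of maturing neutrophils, 2141 CPM under vehicle and 64693 CPM under retinoic acid. None of them was at 0 in either library. The 15 that reached 20 CPM in a library were all at least 2-fold higher under retinoic acid. Of those under that limit, Cxcr2 went the other way, from 16.6 to 6.82 CPM. The part of these cell types in the results was not tested.

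The single cells showed how unevenly Mpo was spread under vehicle. To compare cells at equal depth, cells were thinned to 5000 UMIs and shallower ones left out, which kept 5282 vehicle and 6659 retinoic acid cells. At that depth 1142 vehicle cells, 21.6% (20.5 to 22.8), held an Mpo UMI. Without thinning the share was 30.3%, and cells with an Mpo UMI had a median depth of 20303 UMIs against 15452 in cells without. Among unthinned cells with the gene, the median was 6 Mpo UMIs and the quartiles were 1 and 22, up to 245 in a single cell. The 10% of vehicle cells richest in Mpo, 548 cells, held 86.3% of all its UMIs, and 162 cells (2.96%) held 50% or more.

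**Figure D1:**
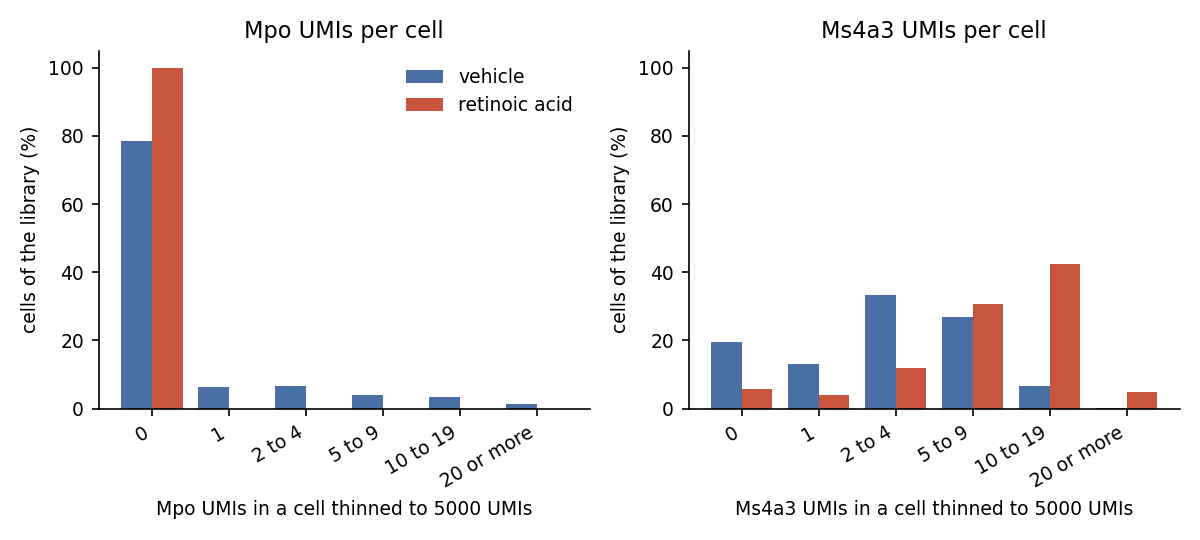
Share of cells (percent of each library) by the number of Mpo or Ms4a3 UMIs in a cell thinned to 5000 UMIs, for 5282 vehicle cells (blue) and 6659 retinoic acid cells (red). Under vehicle 78.4% of cells had no Mpo UMI and 1.36% had 20 or more, while for Ms4a3 the most common class moved from 2 to 4 UMIs under vehicle to 10 to 19 under retinoic acid.

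Thinned vehicle cells with Mpo were spread over all classes of the plot of UMIs per cell. A single UMI was found in 6.40% of cells, 2 to 4 in 6.61%, 5 to 9 in 3.96%, 10 to 19 in 3.29% and 20 or more in 1.36%. The 246 cells with 10 or more UMIs were a small part of the library but carried most of the thinned Mpo, with 33.7% of its UMIs in the class of 10 to 19 and 27.8% in the class of 20 or more. The variance of Mpo over thinned vehicle cells was 13.3 times its mean (the Fano factor), rank 15 from the top among 5173 genes with at least 20 CPM, whose median was 1.04.

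Under retinoic acid all Mpo came from 3 of 7140 cells, 0.0420% (0.00867 to 0.123). A single cell held 53 of the 55 UMIs, 96.4%, and each of the other cells held 1. Without that cell 2 counts remained and the log2 ratio went from -9.27 to -13.74 (-17.11 to -12.21). The cell had 25132 UMIs, 0.672% of them mitochondrial, was called in G2/M phase, and its barcode was not listed in the vehicle library. Its Mpo level was 2109 CPM, and 174 of 5476 vehicle cells held at least as many Mpo UMIs. In UMIs of Elane (neutrophil elastase) it lay outside the vehicle range: it held 107, whereas the highest vehicle cell held 77. The median retinoic acid cell held 96, in a library with a median depth of 14604 UMIs. Scaled to its depth, the cell had an Elane level of 4258 CPM. The whole vehicle library was at 62.8 CPM of Elane and the whole retinoic acid library at 7663 CPM, so the cell lay between them. It held 42 UMIs of Ms4a3, where the highest vehicle cell held 152, 242 of Ctsg, 62 of Prtn3 and none of Cpa3, the mast cell carboxypeptidase abundant in the vehicle library. Its share of UMIs in the neutrophil maturation list was 0.14%. That is inside the vehicle range, where a bin of 1320 cells had shares of 0.08 to 0.16%, and 27 of 6659 retinoic acid cells had a lower share. The other cells with Mpo had 25726 and 25946 UMIs, and they held 61 and 55 UMIs of Ms4a3 and 178 and 202 of Elane.

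Ms4a3 was found in most cells of both libraries. At 5000 UMIs it was found in 80.5% (79.4 to 81.6) of the cells under vehicle and in 94.2% (93.6 to 94.7) of those under retinoic acid. Without thinning the shares were 87.3% and 93.4%. The thinned cells had a median of 3 Ms4a3 UMIs under vehicle (quartiles 1 and 6) and of 9 under retinoic acid (quartiles 5 and 13). The highest thinned cells held 25 and 36. The distributions overlapped, but the class of 10 to 19 UMIs held 42.5% of retinoic acid and 6.70% of vehicle cells, and the class of 20 or more 4.90% and 0.208%. The Fano factor was 3.32 and 3.59, and the richest 10% of cells held 34.3% and 28.7% of the Ms4a3 UMIs, against 86.3% for Mpo under vehicle.

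Under vehicle the genes overlapped in the cells that held them. Of the thinned vehicle cells, 1082 held both, 60 held Mpo alone, 3170 held Ms4a3 alone and 970 held neither. Ms4a3 was found in 94.7% of the cells with Mpo and in 76.6% of those without it. Mpo was found in 25.4% of the cells with Ms4a3 and in 5.83% of those without. The cells with most Mpo were also those with the highest Ms4a3 level. Across classes of 0, 1, 2 to 4, 5 to 9 and 10 or more Mpo UMIs, Ms4a3 was at 770, 939, 1087, 1116 and 1341 CPM. From the first class to the last, Elane ran from 43.3 to 208 CPM and Ctsg (cathepsin G) from 6158 to 8164 CPM, while Cpa3 ran from 662 to 141 CPM. The G1 share ran from 58.1% to 29.3% of cells and the median depth from 16355 to 21245 UMIs, and the part of phase and depth in these differences was not tested.

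**Figure D2:**
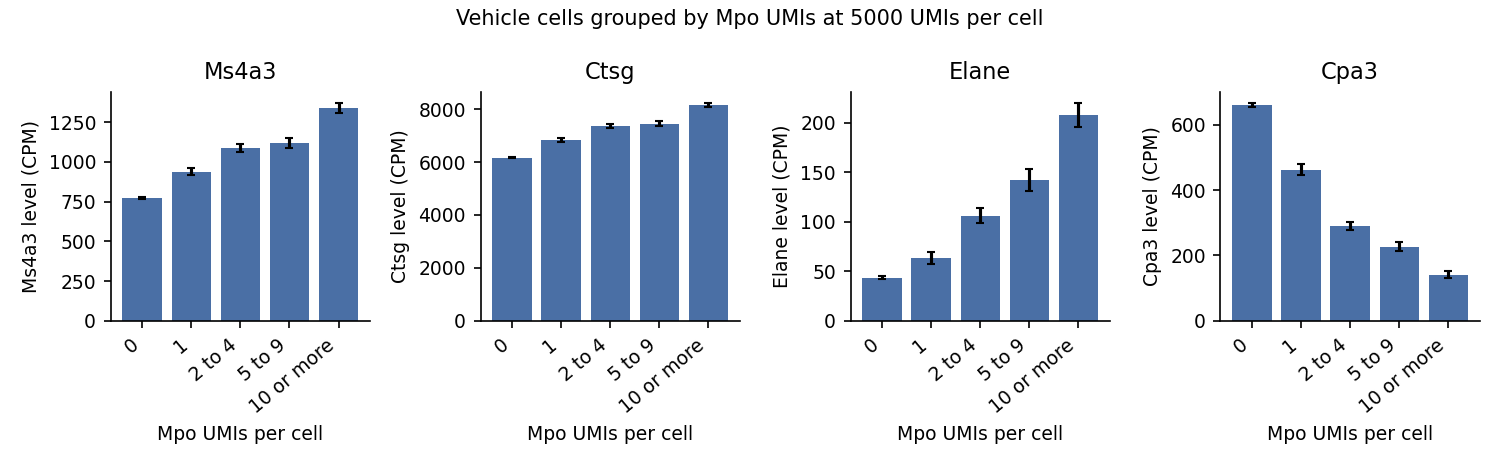
Levels in CPM of Ms4a3, Ctsg, Elane and Cpa3 in vehicle cells grouped by Mpo UMIs at 5000 UMIs per cell, with 4140, 338, 349, 209 and 246 cells from left to right. Bars start at 0, error bars are exact 95% Poisson intervals, and Ms4a3 goes from 770 to 1341 CPM while Cpa3 goes from 662 to 141 CPM.

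Of vehicle cells with a Cpa3 UMI 16.2% held Mpo, and of those without one 29.2% did. For Ms4a3 these shares were 72.7% and 91.4%. The lowest share in any of the 5 vehicle clusters described next was 4.65% for Mpo and 30.7% for Ms4a3, and the part of free RNA in these shares was not tested.

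Each library was clustered on its own, without Mpo and Ms4a3 among the genes used, to place their levels over the kinds of cell. A cluster was named only from markers among its 10 leading genes, and a cluster against the rest is a description. The vehicle library gave 5 clusters. Mpo was at 425 CPM (416 to 435) in cluster 4, led by S phase genes such as Ung and Cdc6, and at 419 CPM (413 to 425) in cluster 1, led by mitotic genes such as Nusap1 and Ube2c, and these values overlapped within counting error. It was at 125 CPM (121 to 129) in cluster 2, of which 99.5% of cells were called in G1, at 63.2 CPM (50.2 to 78.5) in the neutrophil-like cluster 5 and at 19.5 CPM (16.2 to 23.2) in cluster 3. Cluster 3 was led by Il13, Cd200r3, Slc6a4 and Alox15, also held Cma1, Prg2 and Prg3 among its leading genes, and stayed unnamed. With a finer clustering, at resolution 1.0, the vehicle cells split into 13 clusters, of which 2 were neutrophil-like and differed from each other. Cluster 5 of that split, 97.4% G1, was at 78.1 CPM (66.4 to 91.2) of Mpo, and cluster 11, of 64 cells and 82.8% G2/M, was at 472 CPM (437 to 509). Vehicle cells with neutrophil markers were thus low or high in Mpo depending on the cluster. Clusters 7 and 13 of that split were eosinophil-like. Cluster 7, of 466 cells and 98.2% G1, was at 22.6 CPM (18.8 to 27.0) of Mpo and 151 CPM of Ms4a3. Cluster 13, of 113 cells and 93.5% G2/M, was at 167 CPM (152 to 184) of Mpo and 504 CPM of Ms4a3.

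Under vehicle Ms4a3 was likewise highest in clusters 1 and 4 and lowest in cluster 3, but clusters 2 and 5 stood in the reverse order. It was at 1102 CPM (1092 to 1111) in cluster 1, 1024 CPM (1010 to 1039) in cluster 4, 537 CPM (497 to 578) in the neutrophil-like cluster 5, 471 CPM (463 to 479) in cluster 2 and 142 CPM (133 to 151) in cluster 3. In the finer split the same neutrophil-like clusters 5 and 11 were at 584 CPM (552 to 619) and 1269 CPM (1212 to 1328), the latter being the highest of the 13. No neighbours in the order of the 5 clusters overlapped within counting error. For both genes the shares of thinned cells with a UMI were also highest in clusters 1 and 4 and lowest in cluster 3. In cluster 1, with a median depth of 23673 UMIs, 29.1% of cells held Mpo and 94.5% held Ms4a3. In cluster 3, with a median depth of 10924 UMIs, 4.65% (2.94 to 6.96) held Mpo and 30.7% (26.5 to 35.0) held Ms4a3. In the finer split cluster 12, of 114 cells, was lower still, with Mpo at 8.16 CPM (3.73 to 15.5) and Ms4a3 in 6.52% (2.43 to 13.7) of thinned cells. No vehicle cluster is known to lack Mpo, so the share that free RNA gives was not measured. The Mpo share in cluster 5 of the first clustering was 8.82% (4.11 to 16.1) of 102 thinned cells at a median depth of 10437 UMIs. It overlapped with the share in cluster 3. The share alone therefore does not set cluster 5 apart from cluster 3. By summed level cluster 5, at 63.2 CPM (50.2 to 78.5), lay above cluster 3, at 19.5 CPM (16.2 to 23.2). The part of free RNA in these values was not tested. The shares in cluster 2 (12.8 to 16.1%), cluster 1 (27.0 to 31.2%) and cluster 4 (27.6 to 33.5%) lay above the share in cluster 3.

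**Figure D3:**
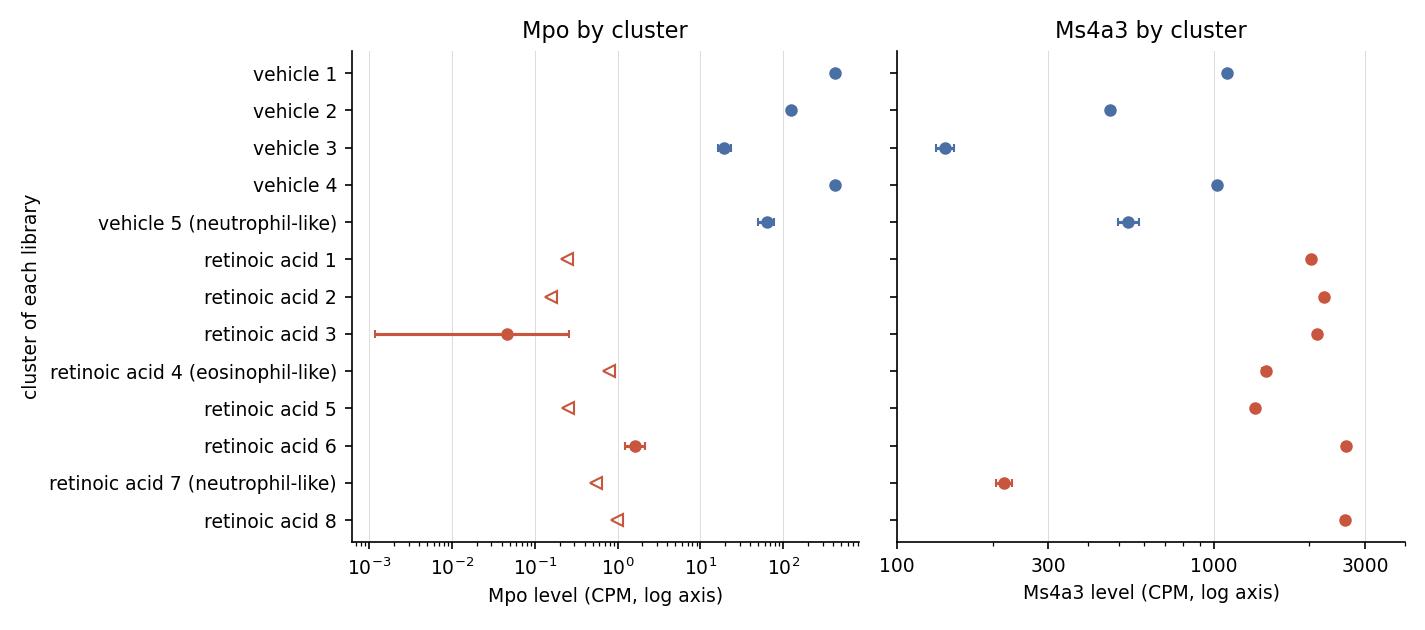
Levels of Mpo (left) and Ms4a3 (right) in CPM on log axes for the 5 vehicle clusters (blue) and the 8 retinoic acid clusters (red). Points are summed counts with exact 95% Poisson intervals, open triangles mark clusters with 0 counts at the level of 3 counts, and Ms4a3 is lowest in vehicle cluster 3 and in the neutrophil-like cluster 7 of the retinoic acid library.

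The retinoic acid library gave 8 clusters, and Mpo was near or at 0 in each. Of its 55 counts 54 lay in cluster 6, led by mitotic genes such as Cenpf and Ube2c, at 1.64 CPM (1.23 to 2.14), and 1 in cluster 3. The other clusters had 0 counts, which allows from 0.157 CPM in cluster 2 to 0.992 CPM in cluster 8 if 3 counts are taken for the 0. Even the cluster highest in Mpo lay below vehicle cluster 3, the lowest of its library at that resolution.

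In the retinoic acid library 1 cluster stood apart in Ms4a3, the neutrophil-like one. Ms4a3 was at 2614 CPM (2596 to 2631) in cluster 6 and 2583 CPM (2526 to 2641) in cluster 8, which overlapped. Clusters 2, 3 and 1 followed at 2220, 2120 and 2023 CPM. The eosinophil-like cluster 4, named from Prg3, Prg2, Epx and Ear6, was at 1459 CPM (1421 to 1498). Cluster 5, in which Camp, S100a9 and the stefin genes Cstdc4 and Cstdc5 led, was at 1348 CPM (1327 to 1369). With the maturation list left out of the total the order of these neighbours turned, to 1475 CPM in cluster 4 and 1560 CPM in cluster 5. The neutrophil-like cluster 7, led by Mmp9, Ltf, Mmp8 and Retnlg, was at 217 CPM (205 to 230), close to the 200 CPM that 1 UMI is worth at 5000 UMIs per cell. Ms4a3 was found in 45.0% (40.9 to 49.2) of its thinned cells, at a median depth of 7168 UMIs, and in 99.7% of cluster 6, at 21729 UMIs. Apart from cluster 7, all retinoic acid clusters lay above the highest vehicle cluster.

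Maturation was then read per cell as the share of UMIs in the 20 genes of the neutrophil maturation list, and the thinned cells of each library were split by it into 4 bins of like size, numbered from the lowest share. Under retinoic acid Ms4a3 was at 2384, 2476, 2178 and 988 CPM in bins 1 to 4. Bin 4 had a median share of 20.6%, and its log2 ratio to bin 1 was -1.27 (-1.29 to -1.25). The list itself takes up the total, and with it left out the ratio was -0.94. Within G2/M cells alone bin 4 was at 1366 CPM and bin 1 at 2616 CPM, a log2 ratio of -0.94. From bin 1 to bin 4, Ctsg ran from 8267 to 1318 CPM and Elane from 7856 to 3401 CPM. So Ms4a3 was lowest where the azurophil proteases were lowest. Under vehicle, where bin 4 had a median share of only 0.26%, Ms4a3 was at 776, 818, 911 and 916 CPM, and Mpo at 390, 292, 322 and 240 CPM.

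**Figure D4:**
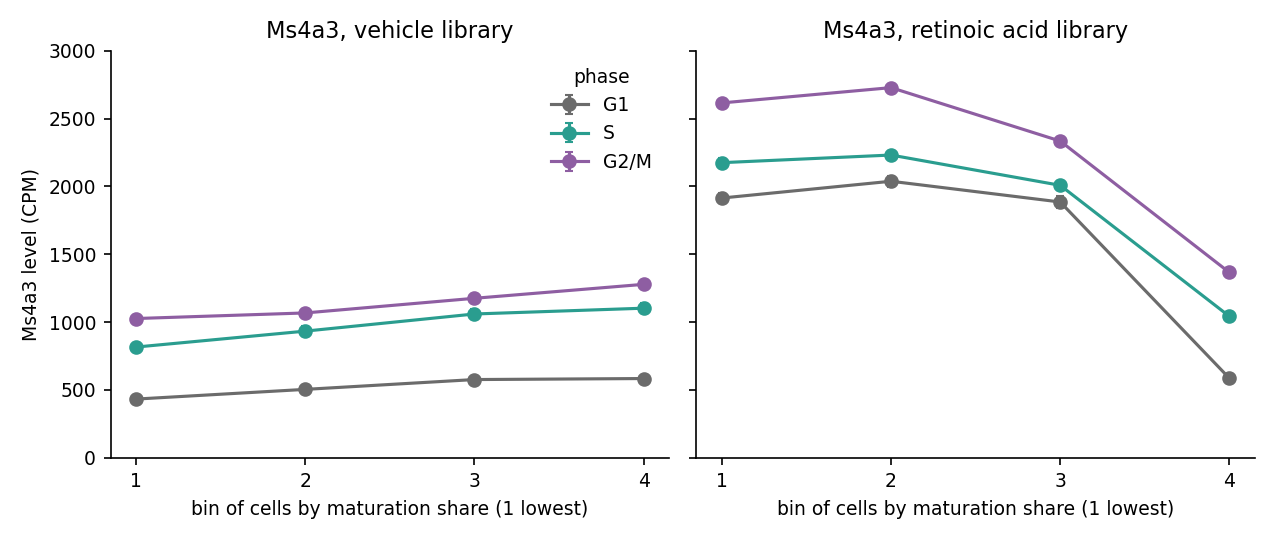
Ms4a3 level in CPM by bin of cells ranked on maturation share (1 is lowest) and by cell cycle phase, in the vehicle library (left) and the retinoic acid library (right), with exact 95% Poisson intervals that are mostly smaller than the points. In both libraries and all 4 bins G2/M cells lie above S cells and S cells above G1 cells, and under retinoic acid bin 4 is lowest in each phase.

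Both genes were lowest in cells called G1. Under vehicle Mpo was at 171 CPM (167 to 175) in G1, 364 CPM (353 to 375) in S and 432 CPM (426 to 438) in G2/M cells. Ms4a3 was at 528, 980 and 1125 CPM in the same phases under vehicle, and at 1491, 1936 and 2422 CPM under retinoic acid. None of the 3 intervals of a gene overlapped in a library. Median depth moved with phase, from 13928 UMIs in vehicle G1 cells to 23955 in vehicle G2/M cells, and from 11053 to 18727 under retinoic acid, and its part in the result was not tested.

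Genes that went with each member over the cells of a library were ranked by Pearson's r of log(1 + UMIs) at 5000 UMIs per cell, among genes with at least 20 CPM. The cells share a library and a fixed total, so r is a description and has no p. For Mpo under vehicle the strongest partner of 5172 genes was Ms4a3 (r = 0.26), followed by Elane (0.25) and Ctsg (0.20). Then came Ptma, Hmgb2, Ppia, Trem3, Rgcc, Ran and H2afz at 0.19 to 0.15. The lowest were Cpa3 (-0.21), Slpi (-0.20), S100a6 (-0.19), Tyrobp (-0.17) and Lgals3 (-0.17). Only 2 genes (0.0387%) reached 0.2 and 2 (0.0387%) were at -0.2 or lower, so all these relations were weak and are no finding. Within the 2853 G1 cells the r of Mpo was 0.25 with Ms4a3, 0.25 with Elane and 0.21 with Ctsg. Mpo had too few positive cells under retinoic acid for this measure.

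Ms4a3 under vehicle went most with Ctsg (r = 0.48), Ptma (0.46), Eif5a (0.43), Ran (0.42), Hmgb2 (0.42) and Ppia (0.41). H2afz, Stmn1, Tubb4b and Tuba1b completed the top 10 at 0.37 to 0.34. In G1 cells alone r was 0.44 for Ctsg, but 0.15 for H2afz and 0.04 for the tubulin gene Tubb4b. Lowest were Cpa3 (-0.47), Rps24 (-0.40), Lgals3 (-0.39), the metallothionein gene Mt1 (-0.37) and Cyp11a1 (-0.37). In all 134 genes (2.59%) reached 0.2 and 80 (1.55%) were at -0.2 or lower. Past 0.4 lay the 6 genes named first (0.116%), and Cpa3 alone (0.0193%) was at -0.4 or lower.

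Under retinoic acid 3 azurophil serine proteases led the partners of Ms4a3. Ctsg came first (r = 0.75), then Elane (0.70), Prtn3 or proteinase 3 (0.64) and Srgn (0.61), which encodes the proteoglycan serglycin that packs granule proteins. Ppia, Rpl3, Ptma, Rpl8, Plac8 and Rpl14 followed at 0.59 to 0.55. Prss57, another azurophil serine protease, was at 0.35 and rank 109. The lowest were Ly6g (-0.67), Lcn2 (-0.64), Ifitm6 (-0.58), Ceacam10 (-0.58) and Retnlg (-0.56), of which Ly6g, Lcn2, Ceacam10 and Retnlg are genes of the maturation list. In all 320 of 5131 genes (6.24%) reached 0.2 and 116 (2.26%) were at -0.2 or lower, with 79 (1.54%) at 0.4 or higher and 29 (0.565%) at -0.4 or lower. Without the neutrophil-like cluster r was 0.60 with Ctsg, 0.52 with Elane and -0.36 with Ly6g. With the maturation list removed before thinning it was 0.66 with Ctsg and 0.61 with Elane.

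**Figure D5:**
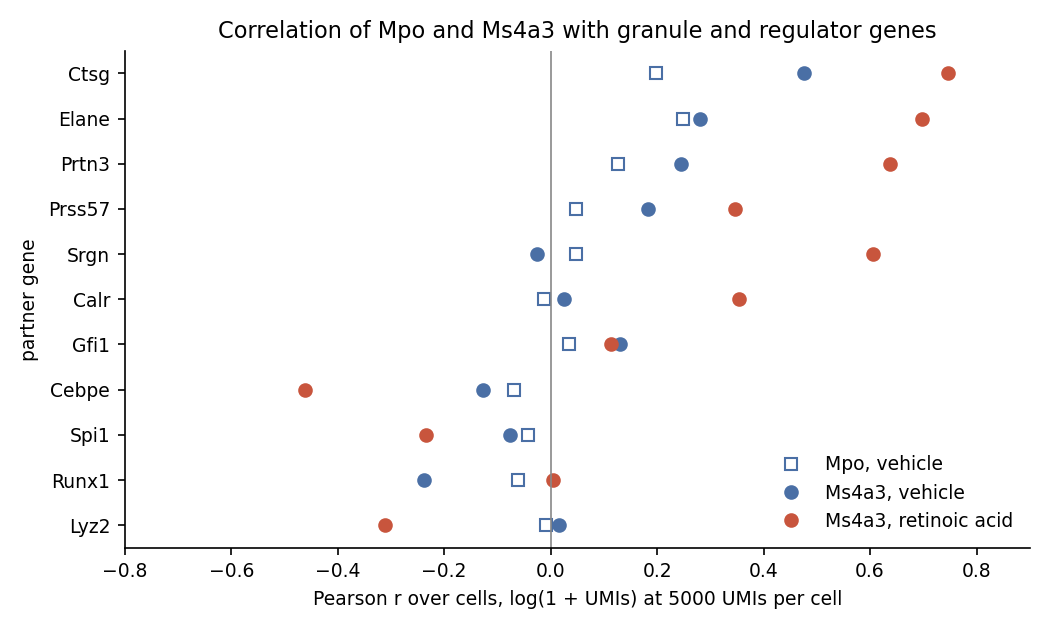
Pearson's r over cells of Mpo under vehicle (open squares) and of Ms4a3 under vehicle (blue) and retinoic acid (red) with 11 granule and regulator genes, from log(1 + UMIs) at 5000 UMIs per cell. For Ms4a3 the values with Ctsg are 0.48 and 0.75 and those with Srgn -0.03 and 0.61.

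Over the 13 clusters of both libraries, the genes whose log2(CPM + 1) followed Mpo most closely were Cd34 (r = 0.97), Igfbp4 (0.96), Col18a1 (0.96), 1500009L16Rik (0.95) and Sod3 (0.95), each of which had a log2 ratio of -6.08 or lower between the libraries. For Ms4a3 they were Mapkapk2, Dgcr6, Mob2, Metrn and Prodh, at r of 0.98 to 0.97, with log2 ratios of 0.28 to 0.74. These clusters share 2 libraries, so the values mostly carry the contrast between them. Cd34 RNA was at 53.8 CPM under vehicle and 0.118 CPM under retinoic acid, although the cells were sorted as CD34 negative.

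The other azurophil granule genes showed no common direction. Of 18, 15 reached 20 CPM, of which 3 were at least 2-fold higher, 0 lower and 12 neither, beside 3.03% higher and 5.05% lower over all genes. Their median log2 ratio was -0.11, against 0.01 for all genes compared. The higher genes were Elane (log2 ratio 6.93), Prtn3 (3.52) and Lyz2 or lysozyme (1.21, from 168 to 387 CPM). Among the 12 were Ctsg (-0.11), Prss57 (-0.26), Srgn (-0.26), the granule membrane gene Cd63 (-0.18), the protease inhibitor gene Serpinb1a (0.52) and the lysosomal hydrolase genes Gusb (0.06), Hexa (0.09), Man2b1 (-0.68), Arsb (-0.89) and Fuca1 (-0.36), and Npc2 (-0.72). Ctsc, the protease that activates the granule serine proteases, was listed with 0 and 1 count, and whether the reference used for counting could show it was not tested. Of the 11 promyelocyte markers 10 were compared, and 3 were higher and 3 lower.

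Genes that serve myeloperoxidase were read beside the 8.07% of all genes past 2-fold. Of 9 haem synthesis genes 5 were compared and 0 were past it, with Alas1, the first enzyme of the pathway, at a log2 ratio of 0.91 (191 to 357 CPM) and Alad, Urod and Fech between -0.27 and 0.29. Of 5 chaperone genes of the endoplasmic reticulum only Calr was past 2-fold, lower at -1.12 (1772 to 816 CPM). Calreticulin is known to bind newly made myeloperoxidase, as is calnexin (Canx, 0.03). Pdia3, Hspa5 and Hsp90b1 lay between -0.17 and 0.14.

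The regulators of early granule genes had no common direction. Of 11, 10 were compared, and 1 was higher and 1 lower, beside 3.03% and 5.05% over all genes. Their median log2 ratio was 0.03, against 0.01 for all genes compared. Cebpd was higher (1.09), and Gata2, a factor of stem, mast and basophil cells, was lower (-5.23, from 43.2 to 1.14 CPM). Cebpa was at -0.23, Cebpe at -0.16, Runx1 at -0.54, Cbfb at 0.22 and Myb at -0.42. Spi1, which encodes PU.1, was at 0.76, Cebpb at 0.68 and Gfi1 at 0.93. With TMM scaling Gfi1 also passed 2-fold. Over retinoic acid cells the r of Ms4a3 was -0.46 with Cebpe, -0.23 with Spi1, 0.12 with Myb and 0.01 with Runx1, and over vehicle cells it was -0.24 with Runx1.

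For the cell cycle partners tied to HTm4, 4 of 5 were compared and 1 was higher, Ccne2 (1.36, 9.12 to 23.4 CPM), beside 3.03% of all genes. Cdkn3 was at 0.84, Cdk2 at 0.60 and Ccna2 at 0.41. Over cells the r of Ms4a3 with Cdkn3 was 0.16 under vehicle and 0.12 under retinoic acid, and with Cdk2 -0.01 and -0.05.

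The relatives of both members were mostly silent in these cells. Of the 18 other Ms4a genes counted, none reached 20 CPM in either library and 7 had 0 counts in both. Ms4a2, which encodes a subunit of the high-affinity IgE receptor of mast cells and basophils and lies 5777 bases from Ms4a3, had 144 counts (1.45 CPM) under vehicle and 226 counts (2.05 CPM) under retinoic acid. Ms4a6b had 42 and 0 counts, and Ms4a4b 38 and 0 counts. Among peroxidases, Lpo, 2015 bases from Mpo, had 1 and 0 counts, and Pxdn had 0 counts in both. Epx, the eosinophil peroxidase gene 59587 bases from Mpo, had a log2 ratio of -3.22, from 55.3 to 5.92 CPM.

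The lower level of Mpo was not shared by all its neighbours on chromosome 11. Of 15 protein-coding genes within 250 kb of Mpo, 4 reached 20 CPM, of which Epx was lower, as were 5.05% of all genes, and Supt4a (-0.26), Dynll2 (0.28) and Srsf1 (0.21) were within 2-fold. Of 19 within 250 kb of Ms4a3, 2 reached 20 CPM, and neither was higher as it was: Mrpl16 was at -0.12 and Stx3 was lower at -3.58 (60.3 to 5.02 CPM). Stx3 was among the leading genes of the eosinophil-like cluster.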

How the data were processed

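Droplet libraries (10x Genomics 3′ chemistry, polyadenylated RNA, target of 6000 cells) were counted by the authors with Cell Ranger 4.0.0 per the file headers, whose deposited output holds whole-number UMI counts, not normalized. The submitters' processing notes name mm10 and GRCm38.p4, and the annotation and the rule that called cells are not given in the sources used here. Coordinates are GRCm38 from GENCODE M21, which 32158 of 32285 identifiers matched. Cells with at least 1000 UMIs, 500 genes and at most 10% mitochondrial UMIs were kept, which removed 310 of 5786 vehicle and 276 of 7416 retinoic acid barcodes. Scrublet in scanpy 1.11.5 called 12 and 15 doublets (0.219% and 0.210%), too few to be taken as working, and none was removed. An alternative left out the 5% highest scores. Thinning to 5000 UMIs left out 194 and 481 shallower cells. Clusters used counts per 10000, logarithms, 2000 variable genes, 30 components, 15 neighbours and Leiden resolution 0.5, and phases used scanpy's cell cycle scoring. A log2 ratio has 0.5 counts added to each sum and an exact conditional binomial interval. A 0 is taken to allow 3 counts. TMM factors came from edgeR 4.0.16.

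No test was made, because each group is 1 library. The calculation of the ratio was checked on simulated library sums for retinoic acid against vehicle over 5186 genes. Of 200 genes changed 4-fold, 100% were recovered, and 95.4% of intervals held the true value. The sums were drawn with Poisson error and without cells, so this outcome was built in. It does not cover counts spread unevenly over cells, as those of Mpo were. The genes named are Mpo and Ms4a3, list members that reached 20 CPM in vehicle or retinoic acid cells, the 10 highest and 5 lowest r per member and library where at least 200 cells held it, and the 5 nearest patterns over clusters. Genes under 20 CPM and leading genes of clusters are named outside this rule, after their values were seen. The members and lists were chosen with earlier results of these data known. Alternatives for cells, depth, scaling, limits on low counts, clustering and correlation are in the closing section.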

Additional observations from a re-analysis of the deposited data

How the results depend on the processing

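Of 94 recomputed values 64 were inside the reported value's counting interval, within 0.05 of a reported r or within 1.5 times a reported count, and 30 moved beyond that. Many of the 94 were small counts of list genes, some of them 0 in both settings, which had little room to move. The tally is thus no measure of how stable the main values were. A change of direction was defined only for log2 ratios and r, and none of these changed direction. The causes were not tested except where the setting gives it. The log2 ratio of Mpo was -9.73 with equal weight for every cell and -13.74 without the 1 retinoic acid cell that held 53 of its 55 counts, a setting chosen after seeing the data. That of Ms4a3 was 1.38 with TMM scaling, 1.32 with equal weight for every cell and 1.39 with the maturation list left out of the total. Shares of cells moved with depth: at 3000 UMIs, 10000 UMIs and without thinning, Mpo was in 18.6%, 28.3% and 30.3% of vehicle cells, and Ms4a3 in 71.6%, 90.1% and 87.3% of vehicle and 90.1%, 99.2% and 93.4% of retinoic acid cells. The r of Mpo with Ms4a3 stayed between 0.24 and 0.30 under every alternative tried. Genes at least 2-fold apart numbered 448 with the 20 CPM limit and 923 with 5 CPM, 133 with 100 CPM and 6081 with none, since the limit sets how many genes are compared. With TMM scaling 2 regulators were higher in place of 1, and at 5 CPM 1 gene of the neutrophil maturation list, Cxcr2, was lower in place of 0. At Leiden resolution 1.0 the highest and lowest vehicle clusters were at 513 and 8.16 CPM for Mpo and 1269 and 26.3 CPM for Ms4a3. The 1269 CPM cluster, 64 cells, was neutrophil-like and held Mpo at 472 CPM, unlike the neutrophil-like vehicle cluster at resolution 0.5 (63.2 CPM of Mpo, 537 CPM of Ms4a3). The log2 ratio of Ms4a3 between maturation bins 4 and 1 was -1.27, and -0.94 both without the list in the total and in G2/M cells, settings chosen after seeing the data. No paired analysis was possible because there was 1 library on each side, and no replicate could be left out.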
